A study of Homo sapiens with 16 samples.

Results

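The collagen genes were taken from the table of reads around transcription start sites (TSS) as every window on an autosome whose gene symbol reads COL, a number, A and a number. Windows were 2000 bp wide and centred on an annotated start, and alternative starts of a gene were kept apart. The rule found 386 windows of 42 genes among 237274 distinct windows, with between 2 and 34 windows per gene and a median of 8. They merge into 199 separate stretches of DNA, so neighbouring windows of a gene often share reads. A further 17 windows of COL4A5 and COL4A6 on the X chromosome and 27 copies of COL11A2 windows on 6 alternative contigs were left out. The 7 windows of COL11A2 on chromosome 6 held 0 reads in all 15 libraries used, input included, and have no value here.

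The cells were BJ-5ta, an established line of human foreskin fibroblasts immortalised with telomerase (hTERT), either wild type or ΔLEO1. The ΔLEO1 cells are 1 clone in which CRISPR/Cas9 removed the start of LEO1, a gene for a subunit of the PAF1 complex that travels with RNA polymerase II. Each genotype was grown in 10% serum or held for 10 days in 0.1% serum, where fibroblasts stop dividing, and each combination gave 2 ChIP and 2 input libraries, named A and B. The sample labels call the antibody H3, and the methods of the study name H3K9me2, dimethylated lysine 9 of histone H3, a mark of silent chromatin. Nothing in the labels says that A and B came from separate cultures, so p-values measure the spread between these libraries, which may be technical. ΔLEO1 10% serum ChIP A held 54 reads in the TSS table and was left out, so ΔLEO1 in 10% serum has 1 ChIP library. The 7 other ChIP libraries held between 1895572 and 3266061 reads over distinct windows, of which 3104 to 5852 lay in collagen windows, and the 8 inputs held between 2844483 and 7947289 reads. At the 2 windows of the LEO1 start, input ran from 3.16 to 5.42 CPM (the read count scaled to the effective library size) in ΔLEO1 and from 4.19 to 6.53 CPM in wild type, which overlap, so counts over 2000 bp do not show the edit.

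Collagens are the main structural proteins of the extracellular matrix. Their chains wind around each other in the endoplasmic reticulum, are hydroxylated and trimmed, and assemble outside the cell into fibrils, networks, beaded filaments or anchoring fibrils. Fibroblasts are the main makers of the fibrillar collagens I, III and V and of collagen VI, while cartilage, epithelium, kidney, muscle and brain make others. H3K9me2 covers broad domains of genes that are not transcribed and is usually low at active promoters.

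No RNA was measured in these libraries. The study also sequenced RNA of wild type and ΔLEO1 cells in both sera, and those values were not used here. Genes were sorted by general knowledge of where each collagen is made, and the sorting was not checked in these cells. The lists were also chosen with earlier results of these data known. Expressed and silent below mean membership of these lists. Of the 42 genes, 15 with 161 windows were listed as expressed in fibroblasts: COL1A1, COL1A2, COL3A1, COL4A1, COL4A2, COL5A1, COL5A2, COL6A1, COL6A2, COL6A3, COL7A1, COL8A1, COL12A1, COL16A1 and COL18A1. Another 16 with 129 windows were listed as silent, among them the cartilage collagens (COL2A1, COL9A1, COL9A2, COL9A3, COL10A1, COL11A2), the kidney chains COL4A3 and COL4A4, the epithelial COL17A1, the muscle COL22A1 and the neuronal COL25A1. The remaining 11 genes with 96 windows were left unclassified. The main start of a gene is its window nearest to the start that RefSeq gives for the gene. It lay within 1 kb of that start for 36 of the 42 genes, while that of COL5A2 lay 215799 bp away and that of COL10A1 58397 bp away.

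The 250 bases before the main start are shown for 5 genes, because together they cover low and high ChIP signal at promoters that are rich and poor in CpG, the dinucleotide that is methylated in DNA. COL16A1 (chr1:31704018-31704267, minus strand) and COL6A2 (chr21:46097862-46098111, plus strand) are expressed genes with ChIP below input and many CpG. COL6A3 (chr2:237414165-237414414, minus strand) is an expressed gene with ChIP below input and few CpG. COL25A1 (chr4:109302659-109302908, minus strand) and COL17A1 (chr10:104085881-104086130, minus strand) are silent genes with ChIP above input, the former CpG-rich and the latter with 1 CpG. The sequences are from RefSeq on GRCh38.p14, read 5′ to 3′ toward the start, with each CpG in capitals.
COL16A1: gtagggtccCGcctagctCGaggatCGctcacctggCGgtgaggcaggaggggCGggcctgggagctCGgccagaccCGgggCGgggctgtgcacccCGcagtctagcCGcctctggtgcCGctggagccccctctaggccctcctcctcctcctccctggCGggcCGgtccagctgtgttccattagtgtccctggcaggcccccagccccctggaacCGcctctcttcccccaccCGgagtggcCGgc
COL6A2: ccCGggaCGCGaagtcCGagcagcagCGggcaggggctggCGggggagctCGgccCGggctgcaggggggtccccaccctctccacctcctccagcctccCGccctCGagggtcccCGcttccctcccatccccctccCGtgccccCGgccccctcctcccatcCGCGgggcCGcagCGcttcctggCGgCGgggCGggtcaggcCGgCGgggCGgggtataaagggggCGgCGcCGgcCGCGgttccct
COL6A3: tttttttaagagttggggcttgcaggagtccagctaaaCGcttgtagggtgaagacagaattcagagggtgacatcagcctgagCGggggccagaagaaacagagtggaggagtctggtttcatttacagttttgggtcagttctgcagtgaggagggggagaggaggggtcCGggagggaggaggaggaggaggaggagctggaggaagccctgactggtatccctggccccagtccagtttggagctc
COL25A1: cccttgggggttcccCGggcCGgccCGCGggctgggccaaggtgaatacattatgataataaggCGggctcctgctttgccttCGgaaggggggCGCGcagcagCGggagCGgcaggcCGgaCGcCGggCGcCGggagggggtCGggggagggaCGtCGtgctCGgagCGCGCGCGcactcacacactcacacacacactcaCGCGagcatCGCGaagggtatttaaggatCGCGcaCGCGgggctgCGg
COL17A1: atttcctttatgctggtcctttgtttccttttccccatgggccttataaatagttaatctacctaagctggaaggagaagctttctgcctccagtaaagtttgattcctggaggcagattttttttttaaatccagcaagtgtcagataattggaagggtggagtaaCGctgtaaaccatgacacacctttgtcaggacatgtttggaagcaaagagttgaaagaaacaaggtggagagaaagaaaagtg

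ChIP over input was compared first, to ask how collagen starts stand beside other starts in these cells. Libraries were scaled over all start windows, and the median over autosomal windows was -0.028. Above, below or near input is therefore relative to other starts and does not say that the mark is present or absent. The log2 ChIP over input of a library was its log2 CPM, with a prior count of 2, minus the mean log2 CPM of the 2 inputs of its condition. Medians and plots use the mean of the 3 conditions with 2 ChIP libraries (wild type in 10% and 0.1% serum, ΔLEO1 in 0.1% serum), and values with a standard error (SE) are log2 fold changes for the same mean from edgeR. An adjusted p under 0.05 was called. Of the 379 collagen windows with reads enough to test, ChIP was higher than input at 119 and lower at 152. Of all 206148 windows tested, 37.6% were called higher and 38% lower, so collagen windows as a whole were called about as often as others, at 271 of 379 against 75.7%. A normalised count cannot tell fewer cells with the mark from less mark in each cell.

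The 3 classes differed in which way they were called. At the main starts, 14 of 15 expressed genes had ChIP below input and 0 had ChIP above it. Of the 15 silent genes with a value, 4 were higher and 4 were lower, and of the 11 unclassified genes 3 were higher and 6 lower. Silent main starts were called at 26.7% each way, less often than all windows, at 37.6% higher and 38% lower. Over all windows, expressed genes had 23 higher and 106 lower of 161, silent genes 58 higher and 18 lower of 122, and unclassified genes 38 higher and 28 lower of 96. DESeq2 called fewer higher windows over all collagens, 69 higher and 153 lower, on a scale whose median over all windows was -0.17 log2 units against -0.0033 in edgeR.

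The median log2 ChIP over input at main starts was -1.70 for expressed genes and -0.061 for silent genes, a difference of 1.64. The median over all autosomal windows was -0.028. The difference between the classes lay between 1.17 and 2.01 in the 7 ChIP libraries, lowest in wild type 10% serum A and highest in ΔLEO1 10% serum B. Median normalised counts at expressed main starts ran from 0.893 to 1.83 CPM in the ChIP libraries and from 4.65 to 6.29 CPM in the inputs, which do not overlap. At silent main starts they ran from 3.65 to 5.42 CPM in ChIP and from 3.71 to 4.98 CPM in input, which overlap. The difference was 1.08 when each gene was given by the median of all its windows.

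Calls were also made in each condition. In wild type 10% serum, 68 collagen windows were higher and 145 lower, beside 27.7% and 30.6% of all windows. In wild type 0.1% serum, 77 were higher and 111 lower, beside 26.6% and 26.5%. In ΔLEO1 0.1% serum, 96 were higher and 112 lower, beside 28% and 27%. Leaving out wild type 10% serum ChIP B gave 133 calls in place of 213 for that condition, and leaving out ΔLEO1 0.1% serum ChIP A gave 122 in place of 208, where DESeq2 gave 24 higher and 101 lower. In ΔLEO1 10% serum, with 1 ChIP library, 32 were higher and 57 lower, beside 14.7% and 11.6%. Of the 15 expressed main starts, 14, 11, 13 and 10 were lower in these conditions. Counts in different conditions rest on different depths, and the conditions themselves are compared further on.

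**Figure D1:**
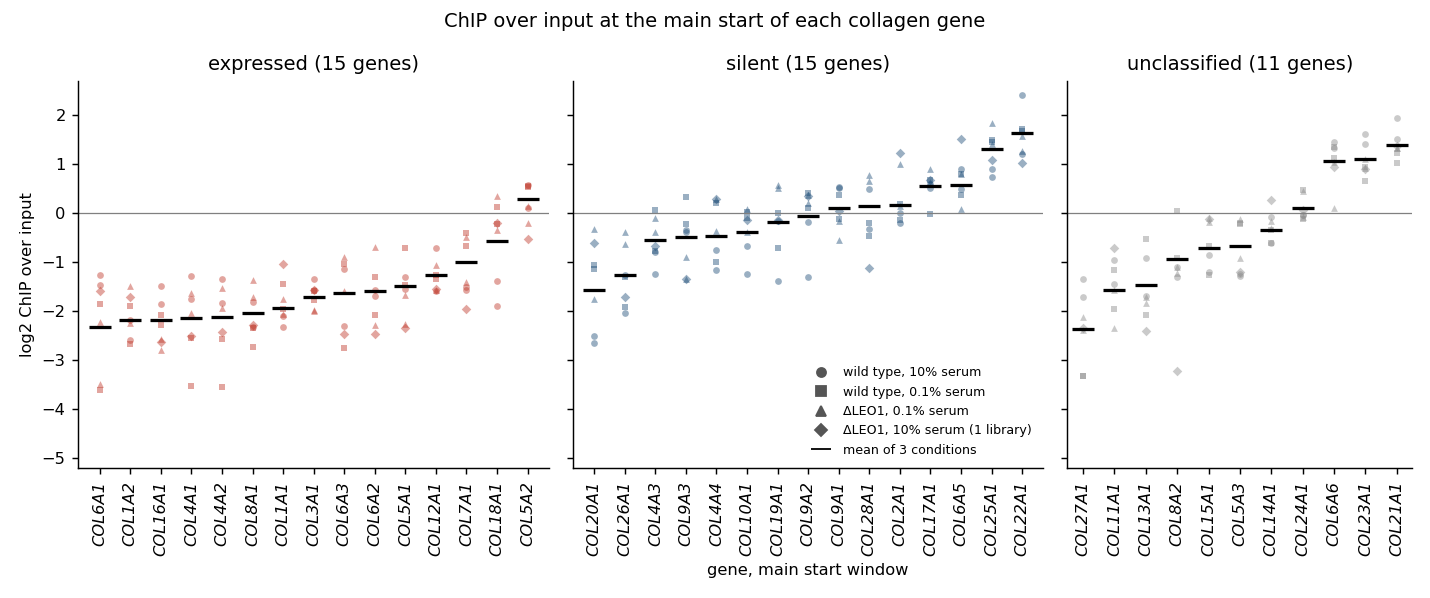
Log2 ChIP over input (y axis) at the main start of 41 collagen genes, ordered within expressed, silent and unclassified genes. Points are the 7 ChIP libraries by condition and black bars the mean of the 3 conditions with 2 libraries; among expressed genes only the bar of COL5A2 lies above 0, and the bars run from -2.36 (COL27A1) to 1.65 (COL22A1).

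**Figure D2:**
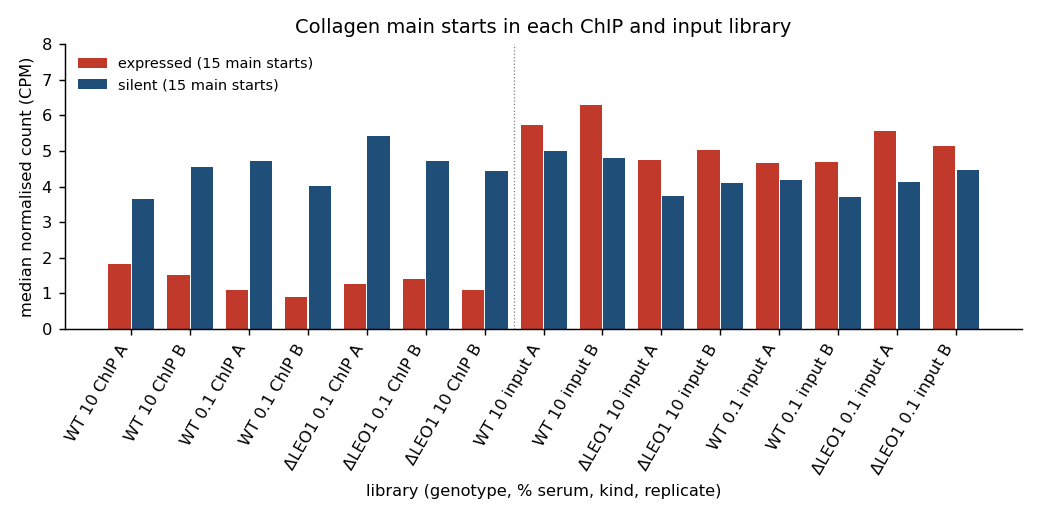
Median normalised count (CPM, y axis) over 15 expressed and 15 silent main starts in each of the 7 ChIP and 8 input libraries. The expressed median lies at 0.893 to 1.83 CPM in ChIP and below the silent median in each ChIP library, and above the silent median in each input.

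Both chains of type I collagen, the main fibrillar collagen of connective tissue, had ChIP below input at every window. COL1A1, the alpha-1 chain of type I collagen, held 0.913 and 1.14 CPM at its main start in wild type 10% serum (A, B), 1.45 and 0.893 in wild type 0.1% serum, 1.27 and 0.945 in ΔLEO1 0.1% serum and 2.21 in ΔLEO1 10% serum. Its 8 inputs held between 3.39 and 7.28 CPM, above every ChIP library. The log2 change over input was -1.92 ± 0.26 (SE, edgeR adjusted p = 6.35e-12), and all 13 windows of the gene were lower.

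COL1A2, its partner chain, held 0.457 and 0.758 CPM in wild type 10% serum, 1.09 and 0.447 in wild type 0.1% serum, 1.91 and 0.945 in ΔLEO1 0.1% serum and 1.66 in ΔLEO1 10% serum at the main start. Input lay between 4.24 and 6.58 CPM and did not overlap with ChIP. The change was -2.12 ± 0.26 (edgeR adjusted p = 2.11e-13), and all 12 windows were lower. COL3A1, the chain of type III collagen, changed by -1.70 ± 0.28 at its main start (edgeR adjusted p = 9.96e-09), with ChIP between 0.893 and 1.14 CPM and input between 3.32 and 6.39 CPM. COL5A1 (type V, which sets fibril width) was lower at 6 of 8 windows. Among all autosomal windows, the main start of COL1A1 lay at percentile 9.83.

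The main window of COL5A2 was not called, with 0.29 ± 0.18 (edgeR adjusted p = 0.128), but this window lies 215799 bp from the RefSeq start and may not describe the promoter of the gene. The windows 45433 and 45551 bp downstream lay at -1.23 and -1.61 and were both called lower. Of all 77 fibrillar windows tested, 3 were higher and 50 lower, beside 37.6% and 38% of all windows. The 3 higher ones belonged to COL11A1, a minor fibrillar chain with its main start at -1.57 ± 0.25 (edgeR adjusted p = 7.39e-09), and to the cartilage gene COL2A1. COL27A1, an unclassified fibrillar collagen of cartilage, had the lowest main start of the family at -2.40 ± 0.30 (edgeR adjusted p = 4.39e-13), with 0 to 5 reads in ChIP and 13 to 44 in input.

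Collagen VI forms beaded filaments close to the cell surface. Its 3 fibroblast chains were lower at the main start and were called higher at some windows inside the gene. COL6A1 held 1.83 and 1.52 CPM at the main start in wild type 10% serum, 1.09 and 0 in wild type 0.1% serum, 0.637 and 0 in ΔLEO1 0.1% serum and 1.11 in ΔLEO1 10% serum, against 3.82 to 5.58 CPM in the inputs. The change was -2.12 ± 0.28 (edgeR adjusted p = 5.06e-12).

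Farther along COL6A1, log2 ChIP over input was higher with distance from the main start, with -0.99 at 5339 bp and -0.17 at 12287 bp. It lay between 0.91 and 1.38 at 5 windows 17630 to 20719 bp downstream, all 5 of them called higher. The 8 windows of the gene merge into 4 stretches of DNA, so these 5 share reads. The window at 20719 bp changed by 1.40 ± 0.15 (edgeR adjusted p = 2.10e-16). COL6A3 was lower at the 8 windows around its main start (-1.52 ± 0.25 at the main start, edgeR adjusted p = 8.15e-09) and higher at 5 of the 11 windows 26087 to 83984 bp downstream. COL6A2 was lower at the 3 windows of its start (-1.54 ± 0.28, edgeR adjusted p = 2.21e-07), which overlap the divergent transcript COL6A2-DT, and higher at 2 windows 14306 and 15505 bp downstream. COL6A5 and COL6A6, chains made in few tissues, were higher at all 3 windows each, with 0.53 ± 0.19 (edgeR adjusted p = 0.0074) and 1.06 ± 0.18 (edgeR adjusted p = 5.15e-08) at the main start.

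The same split within a gene was seen in other families. COL12A1, a collagen that binds the surface of fibrils, was lower at the 4 windows within 1 kb of its main start and higher at all 9 windows from 3261 to 117513 bp downstream. COL13A1, a transmembrane collagen left unclassified, had 12 windows lower and 16 higher, and the 9 windows within 1 kb of its main start were all lower. Of the 15 expressed genes, 6 had a lower main start and at least 1 higher window elsewhere: COL4A2, COL6A1, COL6A2, COL6A3, COL8A1 and COL12A1. For COL4A2 and COL8A1 this rests on 1 window each, whose call was lost when any 1 of 5 or of 10 particular libraries, respectively, was left out. COL1A1, COL1A2 and COL16A1 instead were lower at every window.

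Windows were also pooled by distance. Among expressed genes, 40 of 41 windows within 1 kb of the main start were lower and 0 higher, with a median of -1.79, and the 108 windows over 10 kb downstream had 56 lower and 22 higher, with a median of -0.57. Among silent genes the 41 windows within 1 kb had 7 lower and 13 higher. The 71 windows over 10 kb downstream had 7 lower and 43 higher, with a median of 0.49. Of all windows tested, 38% were lower and 37.6% higher. Windows of 1 gene are not independent, and the genes with most windows weigh most in these counts.

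**Figure D3:**
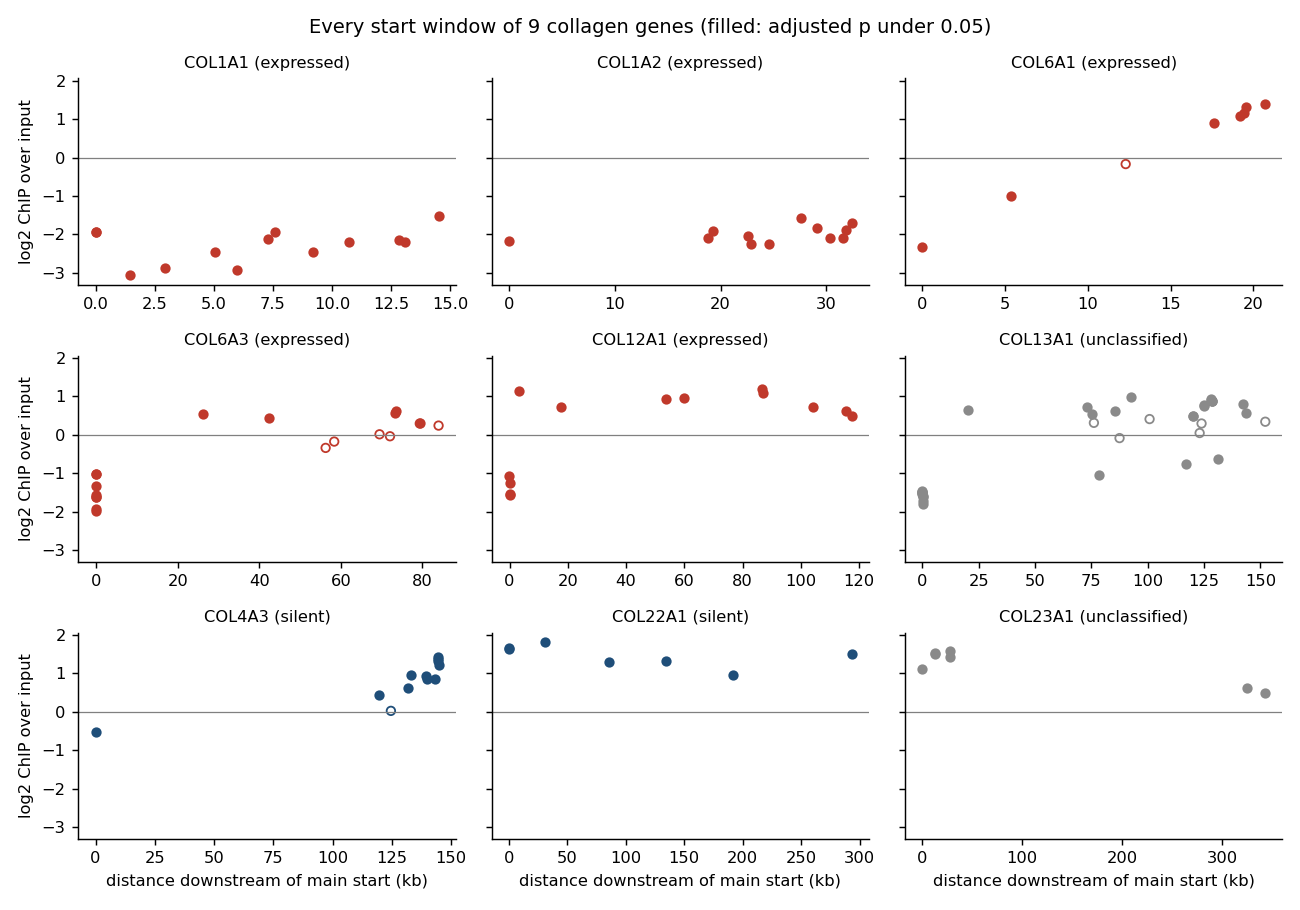
Log2 ChIP over input (y axis, mean of 3 conditions) of every start window of 9 genes against distance downstream of the main start in kb (x axis, its range differs by gene). Filled points had an adjusted p under 0.05; COL1A1 and COL1A2 lie below 0 throughout, COL22A1 and COL23A1 above 0 throughout, and COL6A1, COL6A3, COL12A1 and COL13A1 are lowest around the main start.

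The network-forming collagen IV of basement membranes is encoded by head-to-head gene pairs whose main windows overlap, so the members of a pair share reads. COL4A1 and COL4A2, the widespread pair, lay at -2.16 ± 0.27 (edgeR adjusted p = 2.57e-13) and -2.18 ± 0.27 (edgeR adjusted p = 2.38e-13). COL4A3 and COL4A4, the kidney pair, lay at -0.51 ± 0.22 (edgeR adjusted p = 0.0281) and -0.41 ± 0.21 (edgeR adjusted p = 0.0714). COL4A3 was higher at 10 of its 11 other windows, up to 1.43 log2 units. COL8A1, another network former, was lower at 4 of 5 windows, with -1.99 ± 0.26 at the main start (edgeR adjusted p = 1.05e-12). COL8A2 was lower at both of its windows.

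COL7A1, the anchoring fibril that ties epidermis to dermis, was lower at 10 of 11 windows, with -1.02 ± 0.23 at the main start (edgeR adjusted p = 2.55e-05). COL18A1, the precursor of endostatin, had the weakest lower call among expressed main starts, -0.62 ± 0.28 (edgeR adjusted p = 0.0397). Its input itself was uneven there, from 1.03 CPM in ΔLEO1 0.1% serum A to 6.04 CPM in wild type 10% serum B. The value was -0.32 (edgeR adjusted p = 0.455) without ΔLEO1 0.1% serum input B, and the call was lost when any 1 of 5 particular libraries was left out. Of the 14 main starts of expressed genes other than COL5A2, ChIP held between 0 and 10 reads per library and input between 5 and 58, so single libraries are imprecise.

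The highest main starts belonged to silent and unclassified genes. COL22A1, a collagen of muscle-tendon junctions on chromosome 8, held 7.30 and 17.4 CPM at its main start in wild type 10% serum, 10.2 and 9.82 in wild type 0.1% serum, 8.92 and 7.09 in ΔLEO1 0.1% serum and 6.64 in ΔLEO1 10% serum. Its inputs held between 1.85 and 3.82 CPM, below every ChIP library. The change was 1.66 ± 0.18 (edgeR adjusted p = 1.16e-16), at percentile 98.8 of autosomal windows, and all 7 windows of the gene were higher.

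COL25A1, a transmembrane collagen of neurons, held 11.4 and 10.2 CPM in wild type 10% serum, 12.3 and 12.1 in wild type 0.1% serum, 11.5 and 8.50 in ΔLEO1 0.1% serum and 8.29 in ΔLEO1 10% serum. Its inputs held 2.37 to 5.92 CPM, and the change was 1.33 ± 0.16 (edgeR adjusted p = 3.63e-14). The 5 windows at its start were all higher, overlap the divergent transcript COL25A1-DT and share most reads, whereas a start 469966 bp downstream was lower, with log2 ChIP over input of -1.01 (edgeR adjusted p = 0.000232). Input at the main start changed by -0.51 ± 0.21 in ΔLEO1 against wild type (edgeR adjusted p = 0.827).

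Among unclassified genes, COL21A1, a fibril-associated collagen, had the highest main start, 1.38 ± 0.14 (edgeR adjusted p = 1.34e-17), with ChIP from 11.8 to 19.6 CPM and input from 4.12 to 6.20 CPM. COL23A1, a transmembrane collagen, was higher at all 7 windows. COL24A1, a fibrillar chain, lay at 0.11 ± 0.19 (edgeR adjusted p = 0.61), with a sign that turned under other scalings. COL17A1, the hemidesmosome collagen of epidermis, was higher at 8 of 10 windows, with 0.54 ± 0.17 at the main start (edgeR adjusted p = 0.00311) and 1.47 log2 units at a start 21332 bp downstream. By family, transmembrane collagens had 36 windows higher and 14 lower of 58, beside 37.6% and 38% of all windows. Of the higher ones, 16 belong to COL13A1.

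The main starts of 5 cartilage genes lay near input. Those of COL2A1, COL9A1, COL9A2, COL9A3 and COL10A1 lay between -0.48 and 0.17 as the mean of the 3 conditions, and of these 5 COL9A3 alone was called, with an edgeR value of -0.51 ± 0.22 (edgeR adjusted p = 0.0304). That call was lost when any 1 of 5 particular libraries was left out. The COL10A1 window lies 58397 bp from the start that RefSeq gives for the gene, but its centre lies 25 bp from the start of a RefSeq promoter of COL10A1. The window at another RefSeq promoter of that gene lay at 0.49. The cartilage gene COL11A2 has no value. Away from the main start, COL9A1 was higher at 11 of its 16 windows and COL10A1 at 3 of 5. A COL9A3 window 1199 bp downstream was lower still, at -1.74 ± 0.27 (edgeR adjusted p = 3.14e-09). Among the other silent genes, COL20A1 and COL26A1 were lower at their main starts, by -1.57 ± 0.28 (edgeR adjusted p = 1.16e-07) and -1.26 ± 0.26 (edgeR adjusted p = 5.21e-06), and COL20A1 was lower at 7 of 8 windows. Silent genes thus had called main starts on both sides of input.

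Base composition differed between the classes at the promoters. RefSeq promoters (250 bases before to 50 after a start) matched a window for 29 genes, 27 of them at the main start with 9 in each class. Their median GC content was 74.0% for expressed, 52.3% for silent and 66.7% for unclassified genes, and the median number of CpG was 36, 11 and 22. All 35116 promoters had a median GC content of 58.7% and a median of 14 CpG. Across 35 collagen promoters, log2 ChIP over input was lower at higher GC content (Pearson's r = -0.42) and at higher numbers of CpG (r = -0.35), a description over windows that come from the same libraries and in part from the same genes.

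Among main starts with at least 14 CpG, the median log2 ChIP over input was -1.54 for 8 expressed genes and -0.30 for 4 silent genes. CpG numbers were not matched in this split, and the expressed COL12A1 and the silent COL26A1, with 29 CpG each, both lay at -1.25. The promoters printed above show both combinations: COL25A1 has 38 CpG in 300 bases and COL6A2 has 36, on opposite sides of input, and COL6A3 has 4 and COL17A1 has 1, also on opposite sides. The part of base composition in the difference between the classes was not tested. The TATA motif TATAAA was found on either strand in 8 of the 35 promoters (11.5% of all promoters), the CCAAT motif in 10 (34.6%) and the Sp1 motif GGGCGG in 20 (44.95%).

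**Figure D4:**
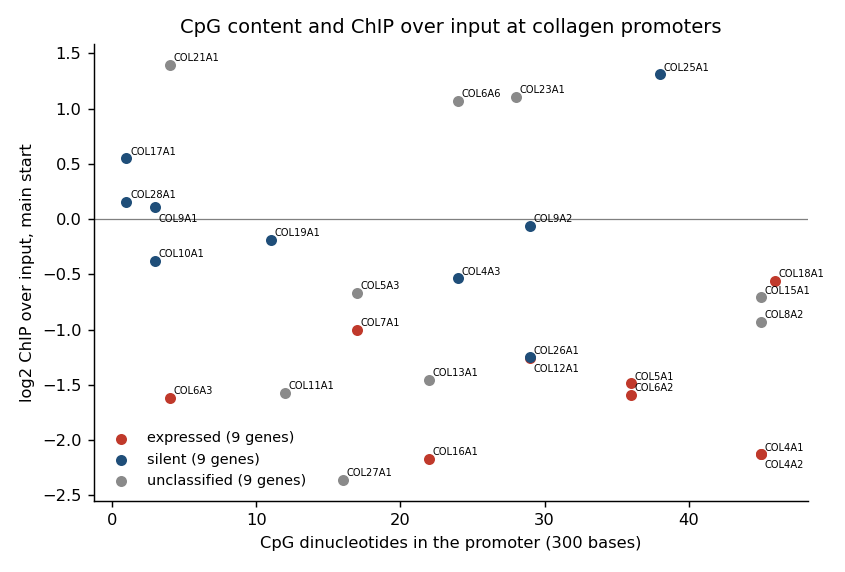
Log2 ChIP over input at the main start (y axis, mean of 3 conditions) against the number of CpG dinucleotides in the 300-base promoter (x axis) for 27 collagen genes, coloured by class. Expressed genes lie below 0 at 4 to 46 CpG, and silent genes spread from -1.25 to 1.31 at 1 to 38 CpG. The points of COL12A1 and COL26A1, and those of COL4A1 and COL4A2, lie on top of each other.

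The genes that process collagen were compared with the same test. A list of 33 genes for chaperones, hydroxylases, proteinases and crosslinking enzymes had 34 windows higher and 228 lower of 310, beside 37.6% and 38% of all windows. At the main starts 27 were lower and 2 higher. P4HB, a subunit of prolyl 4-hydroxylase, was lowest at -2.82 ± 0.28 (edgeR adjusted p = 1.44e-18), and SERPINH1, the collagen chaperone HSP47, lay at -2.50 ± 0.28 (edgeR adjusted p = 5.14e-16). LOX, which crosslinks collagen, lay at -2.46 ± 0.27 (edgeR adjusted p = 6.58e-16). LOXL3 and P4HA3 were the 2 higher ones, at 1.15 ± 0.15 (edgeR adjusted p = 7.40e-12) and 1.24 ± 0.15 (edgeR adjusted p = 2.33e-13). The median of the 33 main starts, -1.23, lay between those of the silent and expressed collagens.

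The loss of LEO1 was compared in 0.1% serum, to ask whether collagen chromatin differs without it in quiescent cells. Of 245 collagen windows with enough ChIP reads, 0 were called by edgeR, beside 0.392% of all 140885 windows tested. At an unadjusted p under 0.05 there were 34 collagen windows, beside 10.9% of all windows. DESeq2 called 0 and had 0 at an unadjusted p under 0.05. The windows split into 130 with a positive and 115 with a negative log2 change. Counts were scaled without the spike-in, so a general gain of the mark, which the paper reported with its spike-in, would not show here. On simulated data this fit recovered 16 of 200 windows changed by 1 log2 unit, so changes of that size were mostly missed.

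The largest differences were at single internal starts. A COL3A1 window 29050 bp downstream of the main start held 5.42 and 3.78 CPM in ΔLEO1 and 0.726 and 2.68 CPM in wild type, with a log2 change of 1.21 ± 0.42 (edgeR adjusted p = 0.195). A COL16A1 window 14049 bp downstream held 5.42 and 5.20 CPM in ΔLEO1 and 1.45 and 2.68 in wild type (1.13 ± 0.44, edgeR adjusted p = 0.266). At both, the groups did not overlap, and neither passed the test.

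The main start of COL19A1, listed as silent, held 7.33 and 7.09 CPM in ΔLEO1 and 2.54 and 4.47 in wild type (0.94 ± 0.35, edgeR adjusted p = 0.242), and this window overlaps a start of LMBRD1. In the other direction, a COL22A1 window 30830 bp downstream held 8.60 and 8.50 CPM in ΔLEO1 and 15.6 and 14.3 in wild type (-0.74 ± 0.25, edgeR adjusted p = 0.179). A COL17A1 window and a COL23A1 window had -0.83 ± 0.42 (edgeR adjusted p = 0.456) and -0.80 ± 0.36 (edgeR adjusted p = 0.367). Leaving out 1 library moved these values by over 1.5 times, to -1.44 and -1.43 without ΔLEO1 0.1% serum ChIP A and to -0.51 and -0.47 without its ChIP B. The COL3A1 value became 0.67 without wild type 0.1% serum ChIP A and 1.85 without its ChIP B, and the COL19A1 value became 0.60 without wild type 0.1% serum ChIP A. The class medians at main starts in 0.1% serum were -1.70 in wild type and -1.73 in ΔLEO1 for expressed genes, and 0.027 and 0.30 for silent genes.

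Most expressed main starts had too few ChIP reads for these tests. Of 41 main starts with a value, 20 passed the filter, and COL5A2 was the only expressed gene among them. Without a filter, 0 of 41 main starts were called between genotypes, beside 0.212% of all windows in that fit, and 1 had an unadjusted p under 0.05, beside 9.34%. Among the 15 expressed main starts in that fit the smallest edgeR adjusted p was 0.619. In 10% serum, where ΔLEO1 has 1 ChIP library, 0 of 245 collagen windows were called beside 0.0256% of all windows, and 14 had an unadjusted p under 0.05, beside 8.37%. In the inputs, 0 of 379 windows were called between genotypes beside 0.0189% of all windows, and 30 had an unadjusted p under 0.05, beside 5.56%.

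Serum was compared in wild type cells, to ask whether collagen chromatin changes as fibroblasts enter quiescence. Of 245 windows, 3 rose and 2 fell in 0.1% against 10% serum by edgeR, beside 0.0738% of all 140885 windows that rose and 0.176% that fell (0.25% in all). The 3 that rose overlap each other in COL6A2. At an unadjusted p under 0.05 there were 34, beside 9.52% of all windows. DESeq2 called 0 of the 245, with 8 at an unadjusted p under 0.05. Without wild type 0.1% serum ChIP A, edgeR called 0, without its ChIP B 3, and without wild type 10% serum ChIP A or B 2.

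COL6A2 has 3 annotated starts 13338 to 14306 bp downstream of its main start, inside the gene. The window at chr21:46110450-46112450 held 1.83 and 1.89 CPM in wild type 10% serum (1.86 ± 0.048, SD, n = 2) and 13.8 and 8.48 in wild type 0.1% serum (11.1 ± 3.75, SD, n = 2). It held 7.33 and 5.67 CPM in ΔLEO1 0.1% serum and 3.32 in ΔLEO1 10% serum, between the wild type groups. The wild type groups did not overlap, and input stayed between 2.03 and 5.18 CPM in all 8 inputs.

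The log2 change in wild type was 2.15 ± 0.37 (edgeR adjusted p = 8.06e-05), from 4 and 5 reads in 10% serum to 38 and 19 in 0.1% serum. It was 1.76 with an adjusted p of 0.127 without wild type 0.1% serum A, and 2.56 with an adjusted p of 0.0558 when input was fitted alongside. The windows 13365 and 14306 bp downstream of the main start shared most of these reads and rose by 2.05 ± 0.36 and 1.45 ± 0.30 (edgeR adjusted p = 0.000163 and 0.00305). In ΔLEO1 the change at the first window was 0.83 ± 0.51 (edgeR adjusted p = 0.63), and the interaction of genotype and serum was -1.32 ± 0.72 (edgeR adjusted p = 0.914), so the response was not shown to differ between genotypes.

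The COL3A1 window 29050 bp downstream of the main start, at chr2:189002423-189004423, fell. It held 8.67 and 4.55 CPM in wild type 10% serum (6.61 ± 2.92, SD, n = 2) and 0.726 and 2.68 in wild type 0.1% serum (1.70 ± 1.38, SD, n = 2). Both groups stayed at or below 19 reads, and they did not overlap. The log2 change was -1.60 ± 0.41 (edgeR adjusted p = 0.0445), and it was -1.07 with an adjusted p of 0.606 without wild type 0.1% serum A.

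COL23A1 fell at chr5:178576549-178578549, 12844 bp downstream of its main start, from 19.2 and 17.8 CPM in wild type 10% serum (18.5 ± 0.97, SD, n = 2) to 9.79 and 8.48 in wild type 0.1% serum (9.14 ± 0.927, SD, n = 2). The groups did not overlap, and ChIP stayed above input in both. ΔLEO1 held 13.8 CPM in 10% serum and 9.24 and 7.56 in 0.1% serum. The log2 change in wild type was -0.97 ± 0.24 (edgeR adjusted p = 0.0357), and -0.47 with an adjusted p of 0.854 when input was fitted alongside, since input was also lower in 0.1% serum (3.41 and 2.58 CPM) than in 10% serum (4.61 and 4.31 CPM).

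**Figure D5:**
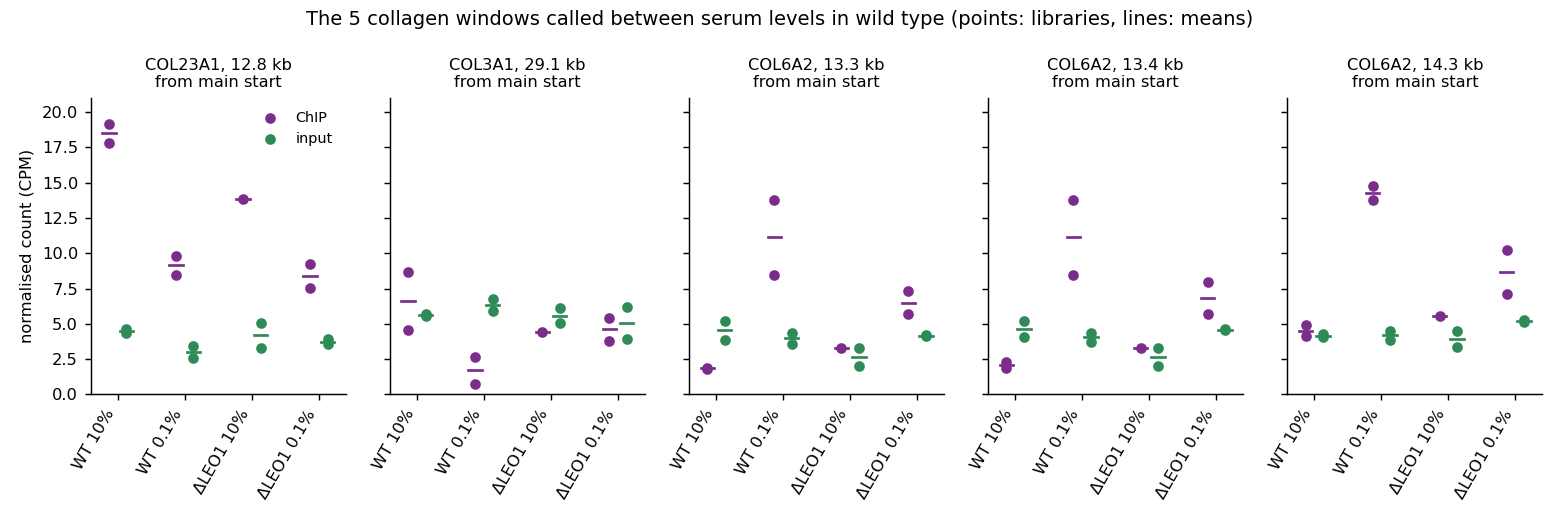
Normalised counts (CPM, y axis) of the 5 collagen windows called between serum levels in wild type, in each ChIP (purple) and input (green) library by genotype and serum, with lines at group means. The COL6A2 windows are higher and the COL3A1 and COL23A1 windows lower in wild type 0.1% than in wild type 10% serum ChIP, without overlap.

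Other collagen windows moved less or did not pass. A COL12A1 window 115594 bp downstream held 4.11 and 4.92 CPM in wild type 10% serum and 12.7 and 9.82 in 0.1% serum (1.15 ± 0.32, edgeR adjusted p = 0.0745). A COL17A1 window 5226 bp downstream held 3.20 and 2.27 CPM and then 7.26 and 8.04 (1.23 ± 0.37, edgeR adjusted p = 0.135). A COL1A1 window held 3 and 4 reads in 10% serum and 1 and 1 in 0.1% serum (edgeR adjusted p = 0.716), too few for a ratio.

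Among the 65 expressed windows tested, 51 had a positive and 14 a negative log2 change with serum, among silent windows 64 and 42, and among unclassified windows 48 and 26. These counts include overlapping windows and only windows with enough ChIP reads. With input fitted alongside, all 161 expressed windows split into 96 positive and 65 negative. Silent windows then split into 72 and 50, and unclassified windows into 50 and 46. Without a filter, the 15 expressed main starts had a median log2 change of -0.40 (smallest edgeR adjusted p = 0.453). Of 127 windows of the processing genes, 1 was called, beside 0.25% of all windows, an internal start of LOXL2 that rose by 1.97 ± 0.34 (edgeR adjusted p = 8.06e-05). In ΔLEO1, with 1 library in 10% serum, 0 of 245 collagen windows were called beside 0.0639% of all windows, and 26 had an unadjusted p under 0.05, beside 9.29%. For the interaction, 0 were called beside 0% of all windows, and 8 had an unadjusted p under 0.05, beside 5.54%.

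The second table held reads in 16092 regions called as peaks. Of these, 47 had a collagen gene as their nearest gene, and they fell to 15 genes: 18 to COL22A1, 5 to COL11A1, and 3 each to COL3A1 and COL23A1 among them. None of the 47 lay within 1 kb of the annotated start of its gene, 2 lay within 10 kb and 3 overlapped a collagen window. By annotation 16 lay in LTR elements, 15 in introns, 6 between genes, 5 in LINE elements, 3 in SINE elements, 1 in an exon and 1 in a CpG island. Expressed genes had 7 of the regions at 3 genes, silent genes 24 at 5 genes and unclassified genes 16 at 7 genes.

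The expressed genes with a region were COL3A1, COL6A3 and COL8A1, and their regions lay at least 13958 bp from the start. The 3 regions at COL3A1 were LTR elements 24859 to 65894 bp upstream. COL22A1 had 10 regions along its own body, and COL23A1 had 2 inside the gene body within 13476 bp of its start. Log2 ChIP over input of the 47 regions, scaled by the effective library sizes of the TSS windows, ran from 1.44 to 2.45. The median was 1.85, beside 1.84 for all regions. The regions had been called as peaks, so their ChIP above input is no separate result. Of the 47, 0 were called by edgeR for genotype in 0.1% serum, beside 0.0621% of all regions, and 3 had an unadjusted p under 0.05, beside 8.33%. For serum in wild type 0 were called, beside 0% of all regions, and 5 had an unadjusted p under 0.05, beside 7.27%.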

How the data were processed

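H3K9me2 ChIP and input libraries of BJ-5ta fibroblasts were read from 2 deposited tables of read counts, over 2000 bp windows at annotated starts and over peak regions. The authors made these raw counts before deposit. Their processing notes name hg38, dm6, bcl2fastq 2.20.0.422, STAR 2.7.10a and HOMER without giving roles, and the study's methods describe a fly spike-in. The tables hold 0 fly rows, so no spike-in scaling was used and a change of the whole genome in one direction would not show. Repeated rows of a window were kept once. Samples were grouped by genotype, serum and antibody. ΔLEO1 10% serum ChIP A, with 54 reads, was left out.

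Counts were fitted with edgeR 4.0.16 in R 4.3.3 (quasi-likelihood F-test, two-sided, filterByExpr with a minimum count of 10, TMM, prior count 2), over all windows, with Benjamini-Hochberg adjustment and calls at 0.05. ChIP over input used all 15 libraries, and genotype and serum used the 7 ChIP libraries. DESeq2 1.42.0 was an alternative, as were library totals, no filter, all rows, a replicate block, the 54-read library kept, input fitted alongside and each library left out. On simulated data, the genotype fit recovered 16 of 200 windows changed by 1 log2 unit and 155 of 200 changed by 2, among 140885 windows. The changed windows were drawn from those with a mean of at least 10 reads, so recovery at windows with fewer reads was not measured.

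The members and gene lists were chosen with earlier results of these data known. Windows named by rule were those called for genotype, serum, their interaction or input, the 4 highest and 4 lowest main starts of each class, COL1A1, COL1A2, COL3A1, COL6A1, COL6A2 and COL6A3, the 3 largest log2 changes each way for genotype in 0.1% serum and for serum in wild type with 1 window per gene, and genes with a window called against their class. Other windows were named after their values were seen. Alternatives for the processing genes, peaks and single conditions were added after seeing the data. Promoters were from RefSeq GRCh38.p14 (29 genes matched).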

Additional observations from a re-analysis of the deposited data

How the results depend on the processing

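Expressed collagens lay below silent ones at main starts under each setting run, by 1.49 to 1.92 log2 units with a library left out and by 1.08 over the median of all windows per gene. The size of the difference also moved with the prior count, to 1.91 with a prior of 0.5 counts and 1.39 with a prior of 4 counts. The 271 calls of ChIP over input became 243 to 277 with a library left out. By condition, leaving out a library gave 133 to 226 calls for wild type 10% serum (133 without its ChIP B), 134 to 196 for wild type 0.1% serum, 122 to 214 for ΔLEO1 0.1% serum (122 without its ChIP A) and 75 to 96 for ΔLEO1 10% serum. DESeq2 gave 125 calls for ΔLEO1 0.1% serum (24 higher, 101 lower), 149 for wild type 10% serum (32 higher, 117 lower), 136 for wild type 0.1% serum (37 higher, 99 lower) and 16 for ΔLEO1 10% serum, where it adjusted p for 51 of 379 windows. The cause of these differences was not tested.

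The 5 serum calls became 0 with DESeq2, 0 with the 54-read library kept, 3 without a filter, 0 with input fitted alongside and 0 to 5 with a library left out. The serum call of the processing genes became 0 with DESeq2, 0 with the 54-read library kept and 0 to 1 with a library left out (0 without wild type 10% serum ChIP A). COL24A1 turned to -0.0456 with DESeq2 and -0.0140 with library totals, and ran from -0.0940 to 0.184 with a library left out. The cause was not tested. The comparisons with 0 calls kept 0 under every alternative run. The replicate letters pair the libraries only by name, with correlations of their deviations from -0.048 to 0.110, and with the replicate block the serum comparison kept 5 calls (3 higher, 2 lower) and the genotype comparison 0. Depth is low at the 14 expressed main starts other than COL5A2, where ChIP held 0 to 10 reads per library.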
